A study of Mus musculus with 8 samples.

Results

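The proteasome is the protease that breaks down most ubiquitin-tagged proteins of the cytosol and nucleus. Its 20S core is a barrel of rings of alpha subunits, which gate the entrance, and rings of beta subunits, of which the products of *Psmb5*, *Psmb6* and *Psmb7* cut the substrate. The 19S regulatory particle caps the core: its ATPases (*Psmc* genes) unfold the substrate and its non-ATPase subunits (*Psmd* genes) bind and remove ubiquitin chains. In muscle, the ubiquitin-proteasome system degrades contractile proteins during atrophy, and interferon-gamma can exchange the cutting subunits for those of the immunoproteasome.

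The genes described here are those of the deposited table whose symbol starts with Psm, a letter from a to g and a number. This rule found 50 genes among 22206 probe sets, each with 1 probe set, and used no measured value. Of these, 48 encode core, 19S, immunoproteasome, activator, inhibitor or assembly proteins. The other 2 are *Psmc3ip*, a meiotic recombination gene that only shares the start of its name, and *Psme2b*, a gene related in sequence to *Psme2*.

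The samples were gastrocnemius (GAS) muscles of male C57/Bl6j mice, 22 weeks old at sampling. At about 10 weeks of age the mice had received an adeno-associated virus (AAV) whose U6 promoter drove a hairpin (sh-RNA) directed at *Mytho* in one leg, and the same kind of virus with a scramble sh-RNA in the contralateral leg. RNA taken 12 weeks later was hybridized to Clariom S Mouse arrays, with 4 arrays of AAV sh-RNA MYTHO muscles (MYTHO-KD) and 4 of AAV sh-RNA scrmb muscles (scramble), so that every muscle had received virus. U6 is active in all cell types, and whole muscle was used. The study describes the serotype of the virus as having a tropism for muscle cells. The comparison asks which transcripts differ after prolonged loss of MYTHO, a regulator of muscle autophagy.

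For each group the table holds an average and a standard deviation (SD) on the log2 scale. Single arrays were not used here, so the value of each array cannot be shown, and whether the arrays of the groups overlapped cannot be said. Differences are MYTHO-KD minus scramble on the log2 scale, tested two-sided with limma's moderated test from these averages and SDs and adjusted by Benjamini-Hochberg over all 22206 probe sets. A gene is said to have changed only at an adjusted p under 0.05. The kind of average is not stated. The tests take it as the plain mean. Another kind of average could move the differences, intervals and p-values, which was not tested. *Mytho*, listed as *D230025D16Rik*, fell from 10.02 (SD 0.37) in scramble to 7.71 (SD 0.66) in MYTHO-KD, which leaves 0.202 of the scramble signal (adjusted p = 0.0138, limma). The muscle fibre genes *Acta1*, *Myh4* and *Atp2a1* stood at 19.93, the top of the scale, in each group, as fits the labelled tissue. Their own difference cannot be read there, whereas the averages of the proteasome genes lay between 3.96 and 15.36.

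No proteasome gene reached an adjusted p under 0.05 (limma), which 0.275% of all probe sets did. At an unadjusted p under 0.05, 2 of the 50 were lower, against 5.52% of all probe sets, and 1 was higher, against 6.48%. Neither count stood above the background, whereas variance models that do not share information between probe sets gave 6 and 5 lower genes, above their backgrounds of 5.21% and 4.47%. The 3 genes were *Psma7* and *Psmc2*, which were lower, and *Psme1*, which was higher. None reached 2-fold at this limit, against 1.12% of all probe sets. Whatever the p, *Psma7* and *Psme1* alone reached 1.5-fold (4.00% of the genes, against 6.44% of all probe sets), and 15 genes reached 1.2-fold (against 33.6% of all probe sets).

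The intervals, from a test that leaves out the pairing of legs, set a bound on the change in array signal that could have been missed. For 48 of the 50 genes the 95% interval of the difference lay within 2-fold in either direction, against 89.2% of all probe sets. It lay within 1.5-fold for 22 genes (44.0%, against 38.4% of all probe sets). A 2-fold change of any of these 48 lies outside its interval, while a 1.5-fold change lies within reach of the interval for the genes beyond those 22.

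**Figure D1:**
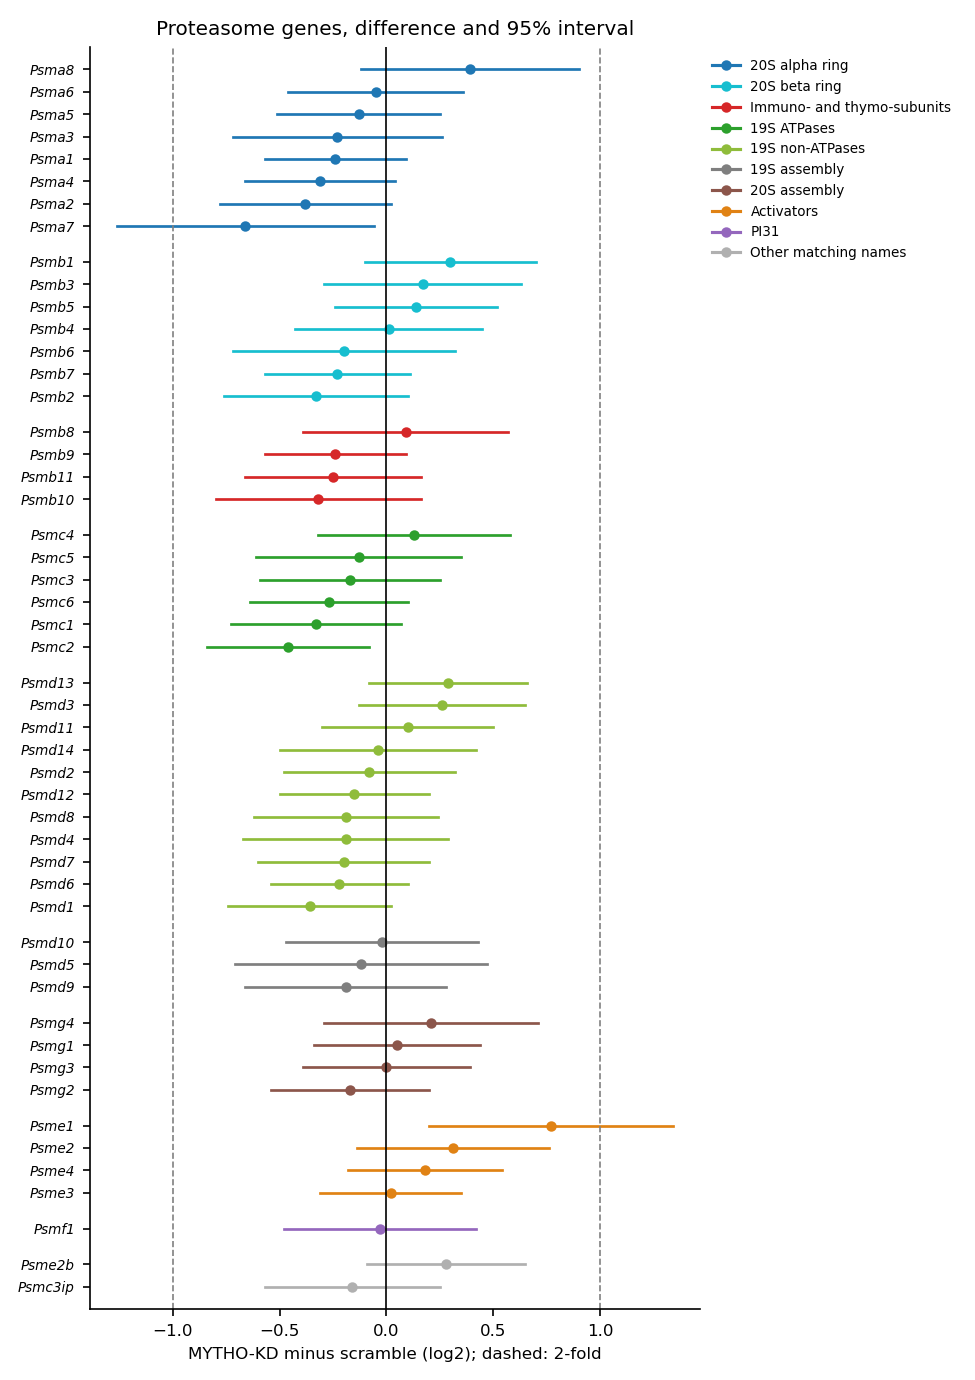
Difference between MYTHO-KD and scramble (x axis, log2) for each of the 50 genes, grouped by class and coloured by it. Points are the differences, lines their 95% intervals from limma's moderated test (4 arrays a group), and dashed lines mark 2-fold. The intervals of *Psma7* (-1.26 to -0.06) and *Psme1* (0.20 to 1.34) cross a dashed line, and those of *Psma7*, *Psmc2* and *Psme1* leave 0 out.

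Most averages were slightly lower in MYTHO-KD. Of the 50 genes, 32 were lower (64.0%), against 51.4% of all probe sets, and 17 were higher (34.0%), against 46.9%. The median difference was -0.13, against -0.01 over all probe sets. The members were chosen with earlier results of these data known and their arrays are shared, so this shift is given as a description and was not tested.

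Promoter sequence was read for the genes that stood at the edges, because proteasome genes are known to share control elements. The RefSeq windows (GRCm38.p6, the build of the table) hold 250 bases before and 50 after the start of a gene, and 42 of the 50 genes had at least 1, in 45 windows. The other 8 had no window and were not searched, so a gene not named under a motif may be among them. *Psma7* and *Psmc2*, the genes with the lowest differences, and *Psmb6*, a catalytic subunit with an antioxidant response element core next to its start, are shown 5′ to 3′ on their own strand up to the base before the start. Capitals mark a CCAAT box (CCAAT), an ETS site (CCGGAAG) or the element core (TGACNNNGC), on either strand.
Psma7, chr2:180042465-180042714, minus strand: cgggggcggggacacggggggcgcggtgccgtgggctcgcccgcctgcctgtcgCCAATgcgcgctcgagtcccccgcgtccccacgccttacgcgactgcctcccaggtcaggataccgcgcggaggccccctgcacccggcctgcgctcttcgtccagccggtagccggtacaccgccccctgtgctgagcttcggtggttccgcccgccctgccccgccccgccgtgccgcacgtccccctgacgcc
Psmc2, chr5:21785025-21785274, plus strand: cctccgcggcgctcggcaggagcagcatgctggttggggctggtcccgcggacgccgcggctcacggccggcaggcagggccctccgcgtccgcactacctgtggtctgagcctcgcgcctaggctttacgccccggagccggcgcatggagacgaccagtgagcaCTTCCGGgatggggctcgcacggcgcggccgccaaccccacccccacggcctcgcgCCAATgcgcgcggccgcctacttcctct
Psmb6, chr11:70525107-70525356, plus strand: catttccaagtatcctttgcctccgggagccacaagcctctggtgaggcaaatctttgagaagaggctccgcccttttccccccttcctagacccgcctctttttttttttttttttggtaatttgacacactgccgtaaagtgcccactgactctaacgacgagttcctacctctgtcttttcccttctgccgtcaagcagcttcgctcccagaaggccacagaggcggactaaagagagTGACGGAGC

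The constitutive alpha subunits all stood on the lower side. *Psma7*, which encodes the alpha 4 subunit, averaged 10.29 (SD 0.62) in scramble and 9.63 (SD 0.24) in MYTHO-KD. Its difference of -0.66 (standard error 0.275) was the lowest of the 50 genes, with an unadjusted p of 0.0340 and an adjusted p of 0.370 (limma). The scramble SD of 0.62 was also the highest SD of any proteasome gene in either group. *Psma2* (alpha 2) averaged 11.93 (SD 0.20) in scramble and 11.55 (SD 0.26) in MYTHO-KD, a difference of -0.38 with an interval from -0.78 to 0.02. *Psma4* (alpha 3) went from 13.57 (SD 0.09) to 13.26 (SD 0.19), a difference of -0.31 with an interval from -0.66 to 0.04. The differences of *Psma1*, *Psma3*, *Psma5* and *Psma6* lay between -0.24 and -0.05. *Psma8*, an alpha subunit of the testis, averaged 4.69 (SD 0.13) in scramble and 5.08 (SD 0.51) in MYTHO-KD, near the floor of the arrays (lowest average 3.18), and its difference of 0.39 had an interval from -0.12 to 0.90. With it, 7 of the 8 alpha genes were lower and the median difference of the class was -0.24.

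The beta ring went both ways. Of its 7 constitutive genes 4 were higher and 3 lower, with a median difference of 0.01. *Psmb5*, which encodes the chymotrypsin-like subunit and shares its probe set entry with *Mir686*, averaged 9.48 (SD 0.25) in scramble and 9.62 (SD 0.14) in MYTHO-KD. Its difference of 0.14 had an interval from -0.24 to 0.52. *Psmb6*, the caspase-like subunit, averaged 12.59 (SD 0.47) and 12.39 (SD 0.26), a difference of -0.20 with an interval from -0.72 to 0.32. *Psmb7*, the trypsin-like subunit, averaged 14.75 (SD 0.09) and 14.52 (SD 0.17), a difference of -0.23 with an interval from -0.57 to 0.11. The study names these 3 genes in its text on mRNA of MYTHO-KD muscles. That text does not say whether muscle, time and method were those of these arrays. On these arrays, a fall to under 0.608 of the scramble signal lies outside the interval of each of the 3. Among the non-catalytic subunits, *Psmb1* had the highest difference, 0.30 (interval -0.10 to 0.70), with 12.60 (SD 0.25) in scramble and 12.90 (SD 0.20) in MYTHO-KD. *Psmb2* had the lowest, -0.33 (interval -0.76 to 0.10), with 11.97 (SD 0.36) and 11.64 (SD 0.16). *Psmb3* and *Psmb4* differed by 0.17 and 0.01.

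Of the ATPases of the 19S base 5 of 6 had a lower average, with a median difference of -0.22. *Psmc2*, which encodes the ATPase Rpt1, averaged 13.56 (SD 0.11) in scramble and 13.10 (SD 0.26) in MYTHO-KD. Its difference of -0.46 (standard error 0.173) is 0.727 of the scramble signal, with an unadjusted p of 0.0211 and an adjusted p of 0.321 (limma). *Psmc1* (Rpt2) averaged 11.36 (SD 0.24) and 11.03 (SD 0.23), a difference of -0.33 with an interval from -0.73 to 0.07. *Psmc6* (Rpt4) differed by -0.27, with an interval from -0.64 to 0.10. *Psmc3* and *Psmc5* differed by -0.17 and -0.13. *Psmc4* was the one ATPase with a higher average, 11.46 (SD 0.08) in MYTHO-KD against 11.33 (SD 0.41) in scramble, a difference of 0.13 with an interval from -0.32 to 0.58.

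Of the 11 non-ATPase subunits of the 19S particle, 8 were lower and 3 higher, with a median difference of -0.15. The lowest was *Psmd1*, the scaffold subunit Rpn2, which averaged 12.27 (SD 0.26) in scramble and 11.91 (SD 0.11) in MYTHO-KD, a difference of -0.36 with an interval from -0.74 to 0.02. *Psmd6* had the smallest SD of the family, 0.06 in scramble, and averaged 12.85 there and 12.63 (SD 0.10) in MYTHO-KD. Its difference of -0.22 had an interval from -0.54 to 0.10. *Psmd4*, the ubiquitin receptor Rpn10, and *Psmd8* each differed by -0.19, *Psmd7* by -0.20, *Psmd12* by -0.15 and *Psmd2* by -0.08. *Psmd14*, the deubiquitinase Rpn11 that cuts chains off the substrate, averaged 9.82 (SD 0.39) and 9.78 (SD 0.21), a difference of -0.04. On the higher side stood *Psmd13* (Rpn9), which averaged 12.81 (SD 0.23) in scramble and 13.10 (SD 0.11) in MYTHO-KD, a difference of 0.29 with an interval from -0.08 to 0.66. *Psmd3* (0.26, interval -0.13 to 0.65) and *Psmd11* (0.10) were higher too.

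**Figure D2:**
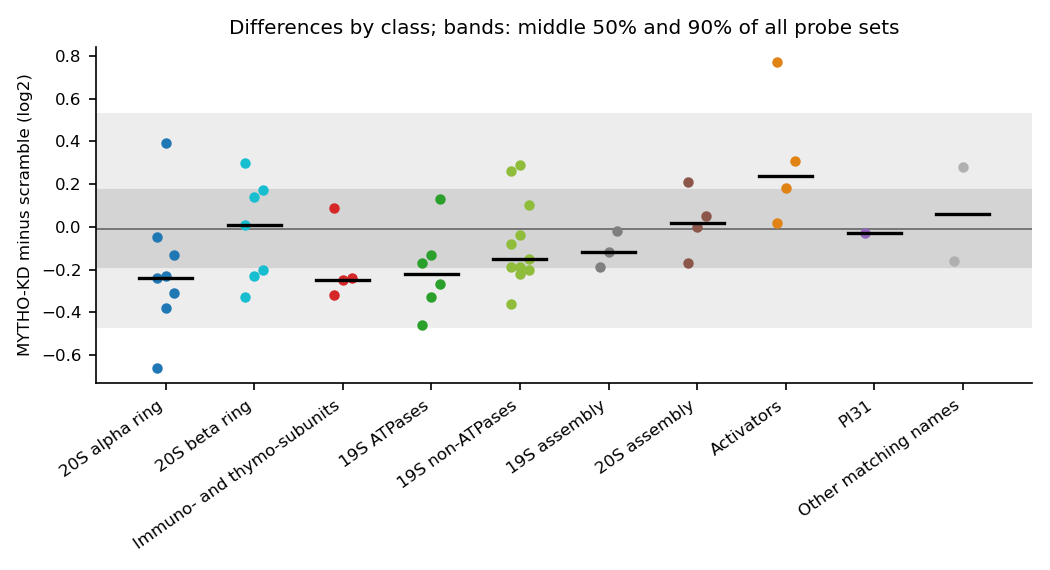
Difference between MYTHO-KD and scramble (y axis, log2) for each gene by class (x axis). Points are genes, black bars class medians, and the grey bands hold the middle 50% (-0.19 to 0.17) and the middle 90% (-0.47 to 0.53) of all 22206 probe sets, with their median as a line. *Psma7* and *Psme1* are the only points outside the wider band, and the medians of the alpha ring, the immuno- and thymo-subunits and the 19S ATPases lie below the narrower one and that of the activators, 0.24, above it.

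Of the 4 immuno- and thymoproteasome subunits 3 had a lower average in MYTHO-KD (median difference -0.25), and none passed the test. *Psmb8*, which replaces the *Psmb5* product, averaged 6.43 (SD 0.18) in scramble and 6.52 (SD 0.44) in MYTHO-KD, a difference of 0.09 with an interval from -0.39 to 0.57. *Psmb9*, which replaces the *Psmb6* product, averaged 6.75 (SD 0.10) and 6.51 (SD 0.10), a difference of -0.24 with an interval from -0.57 to 0.09. *Psmb10*, which replaces the *Psmb7* product, averaged 6.60 (SD 0.19) and 6.28 (SD 0.44), a difference of -0.32 with an interval from -0.80 to 0.16. A rise of any of the 3 beyond 1.49-fold in array signal lies outside its interval. The 3 genes averaged between 6.28 and 6.75, at the 44.0 to 47.3 percentile of all probe sets. Whether the arrays compress a rise at such levels was not tested. *Psmb11*, the thymus subunit, stood at 4.21 (SD 0.33) and 3.96 (SD 0.08), close to the floor, where a fall can be hidden. *Psmb8* and *Psmb9* lie near each other on chromosome 17 (34197721 to 34201454 on the plus strand and 34181988 to 34187764 on the minus strand, mm10).

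All 4 activator genes had a higher average in MYTHO-KD, with a median difference of 0.24, and none passed the adjusted test. *Psme1* encodes the alpha subunit of PA28, the interferon-inducible ring that opens the core without ubiquitin or ATP. It averaged 13.74 (SD 0.52) in scramble and 14.51 (SD 0.32) in MYTHO-KD. Its difference of 0.77 (standard error 0.259) was the highest of the 50 genes and is 1.71-fold, with a 95% interval from 1.15 to 2.52. The unadjusted p was 0.0118 and the adjusted p 0.259 (limma), so *Psme1* did not pass the adjustment. *Psme2*, the beta subunit of the same ring, averaged 9.80 (SD 0.18) and 10.11 (SD 0.39), a difference of 0.31 with an interval from -0.14 to 0.76. These partners lie near each other on chromosome 14, *Psme1* from 55578123 to 55581529 on the plus strand and *Psme2* from 55587440 to 55591113 on the minus strand (mm10). *Psme4* (PA200) averaged 15.18 (SD 0.15) and 15.36 (SD 0.18), a difference of 0.18, and *Psme3* (PA28 gamma, the nuclear form) 12.76 (SD 0.13) and 12.78 (SD 0.10), a difference of 0.02. *Psme2b* averaged 8.28 (SD 0.22) and 8.56 (SD 0.14), a difference of 0.28 with an interval from -0.09 to 0.65. Its sequence is close to that of *Psme2*, and RNA of either may bind the probes of the other.

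*Psme1* is shown for its interferon-stimulated response element (GAAA, a gap of 2 bases and GAAA again, on either strand), which lay 9 to 18 bases after the RefSeq start and is in capitals here.
Psme1, chr14:55578493-55578522, plus strand: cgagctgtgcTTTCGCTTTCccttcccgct

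**Figure D3:**
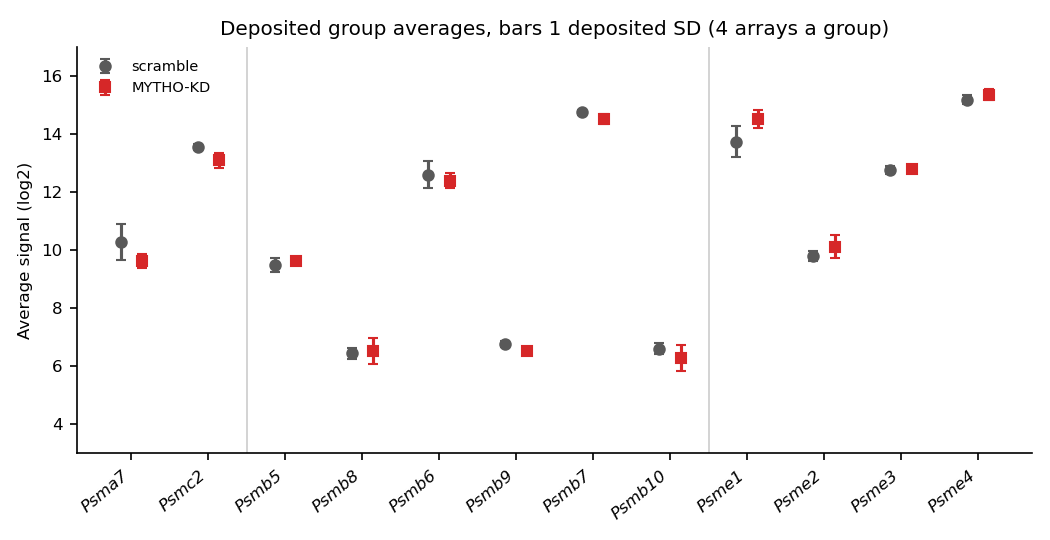
Deposited group averages (y axis, log2 signal) of *Psma7* and *Psmc2*, of the catalytic subunits beside their immunoproteasome counterparts, and of the 4 activators (x axis). Grey circles are scramble and red squares MYTHO-KD, bars are 1 deposited SD (4 arrays a group). Levels can be compared within a gene only, since each gene has its own probes. The averages of *Psme1* are 13.74 and 14.51, and those of *Psmb8*, *Psmb9* and *Psmb10* lie between 6.28 and 6.75.

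Markers of macrophages and of matrix-forming cells moved in the same muscles. Over all probe sets 46.9% had a higher average and 51.4% a lower one, the background for each list here. Of 16 macrophage markers 15 were higher, 8 of them at an unadjusted p under 0.05 (against 6.48% of all probe sets), with a median difference of 0.49. The smallest differences of the 15 were those of *Aif1* (0.01), *Fcgr1* (0.06) and *Cd14* (0.18). The 1 that was not higher was *Ptprc*, a marker of leukocytes in general, which averaged 7.69 in scramble and 7.67 in MYTHO-KD, a difference of -0.02. *Cd68* (2.53, adjusted p = 0.0182) and *Lyz2* (1.94, adjusted p = 0.0277) rose in limma's test. The summed linear signal of the macrophage list was 11.41 (log2) in scramble and 12.48 in MYTHO-KD. Such sums add genes with their own probes, so the brightest probe sets of a list weigh most. In the fibroblast list that was *Dcn*, which averaged 16.58 in scramble and 16.86 in MYTHO-KD. Of the 10 muscle fibre markers, 3 stood at the top of the scale in each group and cannot be compared. Of the other 7, 2 were higher at an unadjusted p under 0.05, *Myh1* (0.59, adjusted p = 0.230) and *Myh2* (0.41, adjusted p = 0.315, limma), 5 had a lower average, and the median difference was -0.05. *Myh2* averaged 19.91 (SD 0.01) in MYTHO-KD, just under the top of the scale, so its difference and SD may be cut off there. All 10 fibroblast markers were higher (median 0.83; summed signal 16.68 and 17.07), with rises of *Bgn* (1.94, adjusted p = 0.0290) and *Lum* (1.49, adjusted p = 0.0443). Of the fibroblast list 5, and of the endothelial list 3, were higher at an unadjusted p under 0.05, against the same 6.48%. The 8 endothelial markers were higher as well (median 0.39; summed signal 13.92 and 14.41), whereas 8 of 9 lymphocyte markers were lower (median -0.17; summed signal 9.21 and 8.99). Immunoproteasome and PA28 genes are well expressed in leukocytes, and the part of these cells in the *Psme1* difference was not tested. In whole muscle, fewer cells of a type and less RNA per cell cannot be told apart, which holds for the lower averages of the alpha and ATPase genes too.

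None of the genes that build the proteasome passed the test. The chaperones of the 19S base, *Psmd5*, *Psmd9* and *Psmd10*, differed by -0.12, -0.19 and -0.02, with averages between 7.61 and 7.88 in the groups. Those of the core, *Psmg1* and *Psmg2* (which pair to start the alpha ring) and *Psmg3* and *Psmg4*, differed by 0.05, -0.17, 0.00 and 0.21, of which the last 2 averaged between 4.57 and 5.11 and lay near the floor. *Psmg2*, also named by the study, averaged 11.04 (SD 0.16) in scramble and 10.87 (SD 0.20) in MYTHO-KD, with an interval of the difference from -0.54 to 0.20. *Psmf1*, which encodes the regulator PI31, averaged 10.85 (SD 0.19) and 10.82 (SD 0.37), a difference of -0.03. *Psmc3ip*, the gene outside the proteasome, differed by -0.16.

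The median SD of the 50 genes was 0.23 in scramble and 0.22 in MYTHO-KD, against 0.27 in each group over all probe sets. The SD was higher in MYTHO-KD for 22 genes (44.0%, against 48.1% of all probe sets), higher in scramble for 27 and equal for 1, and SDs ran from 0.06 to 0.62.

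Lists of related genes gave 0 genes with an adjusted p under 0.05 (limma), and the counts that follow are at an unadjusted p under 0.05, which 5.52% of all probe sets passed as lower and 6.48% as higher. With these shares, 1 or 2 genes a list lie near the background. Of 19 partners of the proteasome, 2 were lower and 0 higher, with a median difference of -0.02. They were *Txnl1*, a thioredoxin-like protein bound to the 19S particle, which averaged 12.28 (SD 0.17) in scramble and 11.82 (SD 0.19) in MYTHO-KD, a difference of -0.46 (adjusted p = 0.303), and *Fbxo7*, a binder of PI31, which averaged 7.83 (SD 0.17) and 7.41 (SD 0.10), a difference of -0.42 (adjusted p = 0.320). *Pomp*, the chaperone that helps the core to dimerize, averaged 11.51 (SD 0.18) and 11.50 (SD 0.20). Subunits and receptors outside the Psm names, *Adrm1* (-0.23) and *Shfm1* (now *Sem1*, 0.27), did not go one way.

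NRF1, the product of *Nfe2l1*, is the transcription factor that raises proteasome genes when the protease is short. *Nfe2l1* averaged 16.65 (SD 0.05) in scramble and 16.74 (SD 0.15) in MYTHO-KD, a difference of 0.09 with an interval from -0.24 to 0.42. *Nfe2l2*, its relative that answers oxidative stress, differed by 0.21 (interval -0.18 to 0.60). *Ngly1*, the deglycosylase that helps to activate NRF1, averaged 8.62 (SD 0.37) and 8.07 (SD 0.23), and its difference of -0.55 had an adjusted p of 0.323. It was the 1 gene of the 9 of this list that was lower at an unadjusted p under 0.05, and none was higher. *Ddi2*, the protease that cuts NRF1, differed by -0.03.

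Among 14 probe sets for ubiquitin and its activating and conjugating enzymes, 1 was higher and 1 lower. *Ube2s*, which extends chains for the anaphase-promoting complex, averaged 9.49 (SD 0.35) in scramble and 10.13 (SD 0.19) in MYTHO-KD, a difference of 0.64 (adjusted p = 0.218). *Ube2g2*, which serves degradation from the endoplasmic reticulum, averaged 10.56 (SD 0.27) and 10.14 (SD 0.11), a difference of -0.42 (adjusted p = 0.370). *Ubb*, which encodes a ubiquitin precursor, differed by -0.13 at averages of 18.62 in scramble and 18.49 in MYTHO-KD, high on the scale. Of 11 genes of the unfoldase p97 and its cofactors, 1 was lower, *Ubxn1*, which averaged 9.22 (SD 0.20) and 8.79 (SD 0.11), a difference of -0.43 (adjusted p = 0.322). *Vcp*, which encodes p97, differed by -0.26. In MHC class I processing, where proteasome products are loaded, 1 of 12 genes was higher, the loading chaperone *Pdia3*, which averaged 10.22 (SD 0.22) and 10.70 (SD 0.29), a difference of 0.48 (adjusted p = 0.344). The peptide transporter genes *Tap1* and *Tap2* differed by -0.24 and -0.14, and the interferon response factor gene *Irf1* by 0.17.

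**Figure D4:**
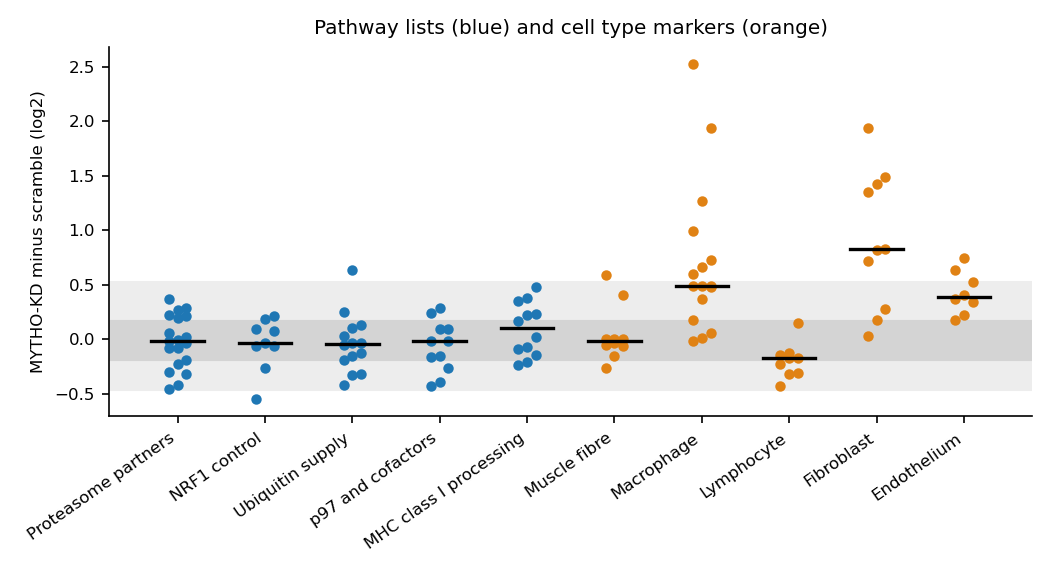
Difference between MYTHO-KD and scramble (y axis, log2) for the genes of each list (x axis), with pathway lists in blue and cell type markers in orange. Points are genes, black bars list medians, and grey bands the middle 50% and 90% of all probe sets. The medians of the 5 pathway lists lie between -0.04 and 0.10, and those of the macrophage and fibroblast markers at 0.49 and 0.83.

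In the printed promoters of *Psma7* and *Psmc2* the CCAAT box ran on into the same letters, CCAATGCGCGC, 196 bases before the start of the first and 28 before that of the second. These 11 letters, searched only after the windows had been read, are the longest run from the CCAAT box that these 2 genes share. Their presence in the windows of both was thus fixed in advance, and the counts test nothing. They were in 2 of 45 windows of proteasome genes, those of *Psma7* and *Psmc2*, and in 8 of all 32851 windows (0.0244%). The CCAAT box itself was no more common in proteasome windows (33.3%) than in all (37.4%). ETS sites were in 35.6% of the proteasome windows and in 8.86% of all, and the 15 genes that held one differed by between -0.46 and 0.29, with a median of -0.08. The core of the antioxidant response element, which NRF1 and NRF2 can bind, was in 13.3% against 12.4%. Its 6 genes, *Psmb5*, *Psmb6*, *Psmc6*, *Psmd9*, *Psmd12* and *Psme4*, differed by between -0.27 and 0.18.

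The interferon-stimulated response element, capitals in the *Psme1* sequence, was in 11.1% of the proteasome windows and in 3.44% of all. Its 5 genes were *Psmb3*, *Psmd4*, *Psmd9*, *Psme1* and *Psmg4*, and their differences ran from -0.19 to 0.77 with a median of 0.17. The gamma-activated site (TTCNNNGAA) was in 6.67% of proteasome windows against 8.30% of all, those of *Psmb8*, *Psmd2* and *Psmg1*, which differed by between -0.08 and 0.09. The table starts *Psme1* at 55578123, ahead of the RefSeq start at 55578494. A match is a run of letters and says nothing of whether a factor was bound in these muscles.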

How the data were processed

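Total RNA of GAS muscle was hybridized to Clariom S Mouse arrays. Signals were normalized by the authors with SST-RMA (Transcriptome Analysis Console), and the submitters' processing notes also name Affymetrix Expression Console and RMA. The deposited table holds log2 averages, log2 SDs and an expression flag for each group, as well as the authors' own fold changes and p-values, which were not used. Values have a decimal comma. It has 0 columns of single arrays left unused. Arrays were mapped to groups by the sample titles.

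With limma 3.58.1 in R 4.3.3, group variances were averaged per probe set (6 residual degrees of freedom). The squeezeVar function then shrank them towards a common SD of 0.284, weighted by 5.85 degrees of freedom. The same function gave limma's own p-values on simulated arrays. Arrays were taken as independent although the legs of a mouse were compared, since the labels do not say which muscles share a mouse. The p-values and intervals therefore rest on the spread between muscles within a group, differences between mice included. A paired test could give other values, which could not be tried. Of several probe sets for a listed symbol, the brightest was taken. Members and lists were chosen with earlier results of these data known. The naming rule covered all members, the pathway genes with the lowest p (unadjusted p under 0.05), *Nfe2l1*, *Nfe2l2* and *Pomp*; *Ddi2*, *Adrm1*, *Shfm1*, *Ubb*, *Vcp*, *Tap1*, *Tap2* and *Irf1* were added for their roles after their values were seen. All 50 member symbols matched RefSeq. In all, 11 motifs were searched on either strand with Python 3.11.15. Those not given above were an E-box, a cAMP response element and sites of nuclear respiratory factor and YY1, and a CGCG element. Arrays have no depth, and their number limits the precision.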

Additional observations from a re-analysis of the deposited data

How the results depend on the processing

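No paired analysis was possible because the table used holds group averages, and for the same reason no array was left out in turn. Rows of lower signal were not tried, since every proteasome gene has 1 probe set. No gene of the 50 passed an adjusted p of 0.05 in the reported fit or in any of the 9 other settings of the variance, the probe sets used and the centring. Of all probe sets, 61 passed in the reported fit. Only 2 passed without moderation, 2 with unequal variances and 3 with the larger of the 2 group SDs. With so few passing anywhere, a count of 0 among the 50 genes adds little in those settings. The setting without the dimmest 30% of probe sets held 46 of the 50 genes. At an unadjusted p under 0.05, where 2 were lower and 1 higher, the counts followed the variance model. There were 6 lower without moderation, against 5.21% of all probe sets, and 5 lower and 0 higher with unequal variances, against 4.47% and 4.55%, so that in these 2 settings the share of lower genes stood above the background. There were 0 lower with the larger of the 2 group SDs, against 3.10%. Without moderation the genes were *Psma1*, *Psma4*, *Psmb9*, *Psmc2*, *Psmd1* and *Psmd6*, together with *Psme1* as the 1 higher, and *Psma7* was lost. Stricter thresholds (2-fold with an unadjusted p under 0.05, an unadjusted p under 0.01, an adjusted p under 0.1 or 0.05) left 0 lower and 0 higher. With other centrings or filters on probe sets the median of -0.13 lay between -0.16 and -0.12, also without *Psmc3ip*, *Psme2b*, *Psma8* and *Psmb11*, a choice made after the data were seen. Variance models and filters cannot move a gene's difference. Of 100 differences recomputed under 2 other centrings, 1 changed sign. *Psmb4* went from 0.01 to -0.03 when the median difference of its bin of like signal was subtracted.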
